A study of Caenorhabditis elegans with 21 samples.

Results

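The genes dod-17, dod-19, dod-21, dod-22, dod-23 and dod-24 of the nematode Caenorhabditis elegans are known as genes whose RNA is kept low by the transcription factor DAF-16 in daf-2 mutant animals. They were chosen by name. A locus of the deposited count table was taken when 1 of its gene names was 1 of the 6. Each name was found in 1 locus that held no other gene, so 6 of 33886 loci and 6 of 39528 gene names are described. Of the 6 genes, 5 had enough fragments to be tested, and dod-21 did not.

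DAF-2 is the worm receptor for insulin-like peptides. When it signals weakly, the FoxO factor DAF-16 enters nuclei, and many genes change. The genes that rise are known as class I genes and those that fall as class II genes. The name dod stands for "downstream of DAF-16", and the genes described here were placed in class II in earlier work. Known activators of class II genes include the zinc finger factor PQM-1. The proteins of dod-17, dod-21, dod-22 and dod-24 carry a CUB-like domain, a feature shared by many worm genes that respond to bacterial pathogens in the intestine.

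Poly(A) RNA of whole animals on day 1 of adulthood was sequenced in 7 genotypes, with 3 libraries of each. Per the labels, worms came from a 4-hour egg-lay, lived at 15 °C up to the L4 stage and spent the next 20 to 24 hours at 20 °C. In 5 genotypes a daf-16 mutation was combined with daf-2(e1370), a mutation in the insulin receptor gene. These were daf-16(mu86), a null mutation, daf-16(mg54), which affects the a and f isoforms, daf-16(tm5030) and daf-16(tm5032), independent mutations of daf-16a, and daf-16(tm6659), a mutation of daf-16f. They are called mu86, mg54, tm5030, tm5032 and tm6659, and all 5 carry daf-2(e1370) as well. The other 2 were daf-2(e1370) with a wild-type daf-16 gene, called daf-2, and N2 wild type. The labels do not say that the 3 libraries of a genotype came from separate cultures, so p-values measure the spread between these libraries, which may be technical.

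Libraries held 30384772 to 47170645 fragments. The daf-16 locus, counted over all its isoforms, stood at 154 ± 11.7 CPM in mu86, 94.2 ± 0.212 in mg54, 144 ± 11.08 in tm5030, 165 ± 13.7 in tm5032, 57.7 ± 11.0 in tm6659, 163 ± 18.6 in daf-2 and 187 ± 5.06 in N2 (SD, n = 3 each). CPM are counts scaled to library size with TMM factors. Fragments outside a deletion are counted too, and isoforms are not told apart. This level therefore does not check the mu86, tm5030 and tm5032 labels, nor which isoforms the mg54 and tm6659 mutations affect. Markers of intestine summed to between 37938 and 58954 CPM over the libraries, and none of the 8 was at 0 in any library. Libraries with the number 3 in their label had higher summed levels of body wall muscle, cuticle and sperm markers than libraries numbered 2 in 7 of 7 genotypes, and lower sums of oocyte and embryo markers in 7 of 7. In such bulk samples, fewer cells of a type and less RNA per cell cannot be told apart.

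In the WBcel235 genome, as annotated by Ensembl release 115, dod-21, dod-24, dod-22 and dod-17 lie in this order within 41606 bp of chromosome IV, in a span with 13 protein-coding genes. The gene dod-21 occupies 12936738 to 12937988 on the plus strand and dod-24 occupies 12940106 to 12941354 on the minus strand. Next come dod-22, from 12965374 to 12967392, and dod-17, from 12976303 to 12978343, both on the plus strand. The gene dod-19 lies alone on chromosome V from 411782 to 414759 and dod-23 on chromosome II from 8398161 to 8399164, both on the minus strand. All 6 are annotated as protein-coding, and none overlaps another annotated gene. The files do not name the build behind their own loci, and these positions were found by gene name.

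Per length of transcript, dod-23 and dod-19 were the most abundant members and dod-21 was barely seen. In mu86 animals, where most were high, the deposited FPKM, which are scaled to transcript length and library size, averaged 194 ± 36.9 for dod-23, 69.0 ± 16.5 for dod-19, 23.1 ± 4.29 for dod-24, 12.3 ± 8.11 for dod-17, 4.24 ± 2.13 for dod-22 and 0.114 ± 0.0964 for dod-21 (SD, n = 3). In daf-2 animals, dod-23 and dod-19 stood at 41.5 ± 17.5 and 41.1 ± 6.24 FPKM. There dod-17 had 1.17 ± 0.547, dod-24 0.720 ± 0.397 and dod-22 0.145 ± 0.0609 FPKM, and dod-21 was listed at 0 in each of the 3 libraries. The members of the chromosome IV group therefore stood well below the other 2 in daf-2 animals.

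**Figure D1:**
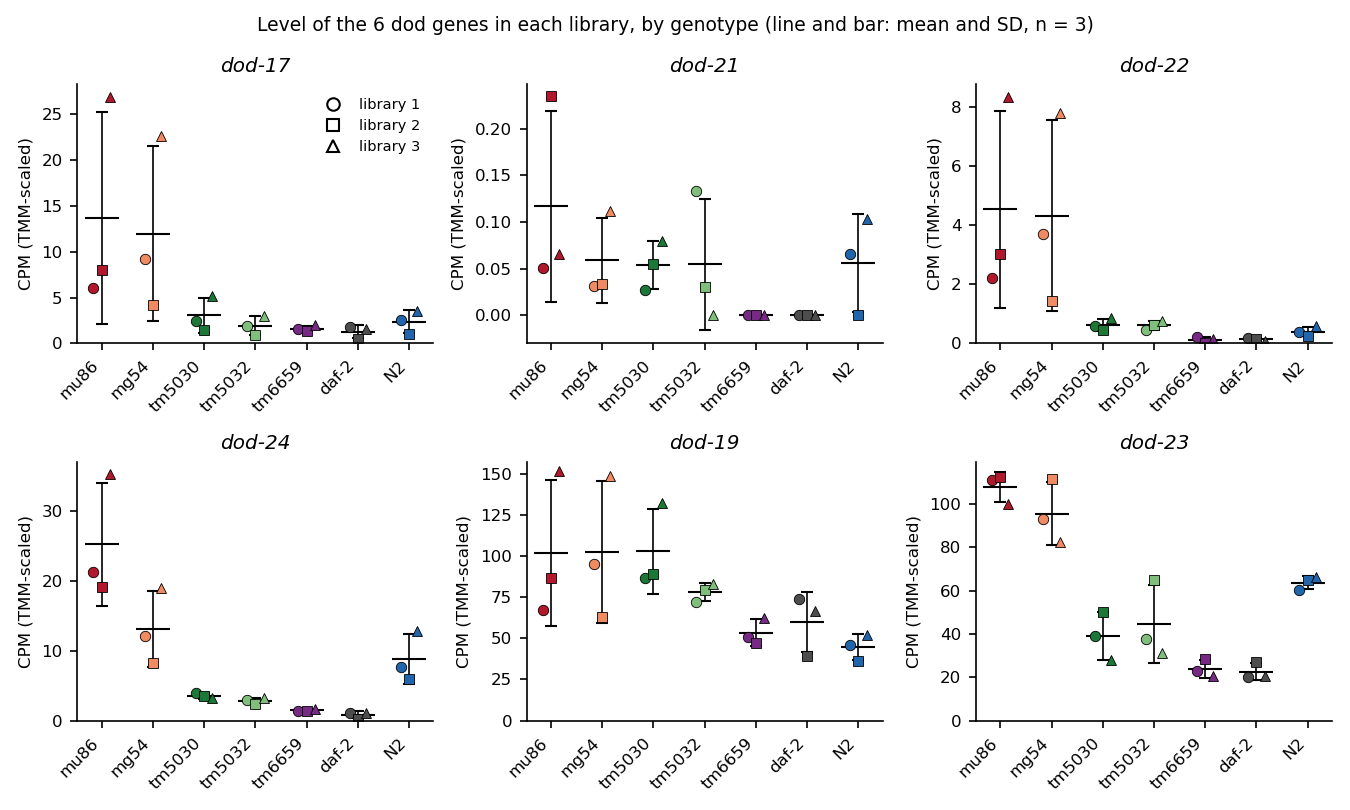
Level of each of the 6 genes in every library, in TMM-scaled CPM, by genotype; symbols give the library number, and the line and bar give mean and SD (n = 3). The mu86 and mg54 libraries of dod-17, dod-22, dod-23 and dod-24 sit above those of daf-2, while for dod-19 they overlap with daf-2.

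The gene dod-24 belongs to the CUB-like group. Its levels in libraries 1, 2 and 3 were 21.3, 19.2 and 35.4 CPM in mu86 and 12.1, 8.31 and 19.1 CPM in mg54. They were 3.97, 3.50 and 3.18 CPM in tm5030, 2.91, 2.36 and 3.23 in tm5032, and 1.42, 1.34 and 1.61 in tm6659. In daf-2 they were 1.10, 0.229 and 1.14 CPM, and in N2 7.74, 5.91 and 12.9 CPM. Each library of the 5 daf-16 genotypes was above each daf-2 library, and the mg54 libraries overlapped with those of N2. The 3 mg54 libraries were all below the 3 mu86 libraries. By mean level, dod-24 ran from mu86 (25.3 ± 8.80 CPM) through mg54 (13.2 ± 5.45), N2 (8.85 ± 3.62), tm5030 (3.55 ± 0.400), tm5032 (2.83 ± 0.443) and tm6659 (1.45 ± 0.138) to daf-2 (0.826 ± 0.517; SD, n = 3 each). No 2 neighbours in this order differed at an adjusted p under 0.05. The replicate numbers paired the tm5030 and N2 libraries. With the replicate number as a block in the model tm5030 was below N2 (-1.22, adjusted p = 0.00503), where 38.5% of all loci were called.

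The gene dod-22, also of the CUB-like group, had 2.22, 3.03 and 8.35 CPM in mu86 libraries 1, 2 and 3 and 3.71, 1.43 and 7.80 CPM in mg54. It had 0.580, 0.441 and 0.848 CPM in tm5030, 0.467, 0.604 and 0.754 in tm5032, and 0.206, 0 and 0.146 in tm6659. In daf-2 it had 0.166, 0.131 and 0.0904 CPM, and in N2 0.372, 0.254 and 0.570 CPM. Over the 3 libraries of a genotype these levels rest on 458 fragments in mu86 and 439 in mg54, against 14 in tm6659, 13 in daf-2 and 47 in N2. The mu86 and mg54 libraries were above those of the other 5 genotypes, and the tm6659 libraries overlapped with daf-2. By mean level the order was mu86 (4.53 ± 3.33 CPM), mg54 (4.32 ± 3.23), tm5030 (0.623 ± 0.207), tm5032 (0.608 ± 0.144), N2 (0.399 ± 0.160), daf-2 (0.129 ± 0.0377) and tm6659 (0.117 ± 0.106; SD, n = 3 each). Of the neighbours in this order, mg54 was above tm5030 (adjusted p = 0.0477), and the other 5 pairs did not pass the threshold.

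The gene dod-17, the last of the tested CUB-like members, had 6.00, 8.04 and 26.9 CPM in mu86 libraries 1, 2 and 3 and 9.17, 4.15 and 22.6 CPM in mg54. It had 2.46, 1.49 and 5.22 CPM in tm5030, 1.89, 0.877 and 2.99 in tm5032, and 1.54, 1.34 and 1.96 in tm6659. In daf-2 it had 1.82, 0.458 and 1.51 CPM, and in N2 2.49, 1.02 and 3.53 CPM. The mu86 and mg54 libraries were above all daf-2 libraries, and library 3 was by far the highest of both genotypes. The means were 13.7 ± 11.55 CPM in mu86, 12.0 ± 9.56 in mg54, 3.05 ± 1.94 in tm5030, 1.92 ± 1.06 in tm5032, 1.61 ± 0.317 in tm6659, 1.26 ± 0.714 in daf-2 and 2.35 ± 1.26 in N2 (SD, n = 3 each). In order of level N2 falls between tm5030 and tm5032, and no neighbours in that order differed at an adjusted p under 0.05. Under the replicate block mg54 was above tm5030 (1.87, adjusted p = 0.00496), where 6.43% of all loci were called.

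The gene dod-23 gave close values in the 3 libraries of mu86 and in those of N2. Its levels in libraries 1, 2 and 3 were 111, 113 and 99.95 CPM in mu86 and 93.1, 112 and 82.3 CPM in mg54. They were 39.2, 50.0 and 28.1 CPM in tm5030, 37.5, 64.9 and 31.4 in tm5032, and 22.8, 28.6 and 20.5 in tm6659. In daf-2 they were 20.1, 27.2 and 20.5 CPM, and in N2 60.2, 64.8 and 66.2 CPM. Both daf-16a genotypes lay above daf-2 in each library, while tm6659 overlapped with daf-2. The order of means was mu86 (108 ± 6.90 CPM), mg54 (95.6 ± 14.8), N2 (63.7 ± 3.13), tm5032 (44.6 ± 17.8), tm5030 (39.1 ± 11.0), tm6659 (23.9 ± 4.18) and daf-2 (22.6 ± 4.01; SD, n = 3 each). No neighbours in this order differed at an adjusted p under 0.05. Under the replicate block tm5030 was above tm6659 (0.69, adjusted p = 0.0133), where the numbers paired the libraries and 5.24% of all loci were called. The block also called mg54 above N2 (0.56, adjusted p = 0.0122) and tm5032 below N2 (-0.58, adjusted p = 0.0092). There the numbers did not pair all libraries (lowest r 0.095 and 0.049), and 42.1% and 33.7% of all loci were called.

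The gene dod-19 differed least between genotypes of the 5 tested members by its means. Its levels in libraries 1, 2 and 3 were 67.3, 86.7 and 152 CPM in mu86 and 95.5, 63.0 and 149 CPM in mg54. They were 87.0, 89.4 and 133 CPM in tm5030, 72.3, 79.6 and 82.96 in tm5032, and 51.0, 47.1 and 62.5 in tm6659. In daf-2 they were 74.0, 39.4 and 66.4 CPM, and in N2 46.1, 36.4 and 51.9 CPM. The mu86, mg54, tm5032 and tm6659 libraries overlapped with daf-2, those of tm5030 were above it, and the mu86, mg54, tm5030 and tm5032 libraries were all above those of N2. The order of means was tm5030 (103 ± 25.7 CPM), mg54 (102.5 ± 43.4), mu86 (101.9 ± 44.2), tm5032 (78.3 ± 5.46), daf-2 (59.9 ± 18.2), tm6659 (53.6 ± 8.01) and N2 (44.8 ± 7.84; SD, n = 3 each), and no neighbours differed at an adjusted p under 0.05.

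The gene dod-21 was at the edge of detection everywhere. Libraries 1, 2 and 3 held 2, 9 and 2 of its fragments in mu86 and 1, 1 and 4 in mg54. They held 1, 2 and 3 in tm5030, 6, 1 and 0 in tm5032, and 3, 0 and 4 in N2. No fragment was counted in the 3 tm6659 and 3 daf-2 libraries. A count of 0 allows up to 3 fragments, or 0.0688 to 0.0876 CPM in the tm6659 libraries and 0.0829 to 0.0982 CPM in those of daf-2. More than 3 fragments were found in 4 libraries, 1 each of mu86, mg54, tm5032 and N2. No fold change and no test are given. These limits cover counting error only.

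Whether the daf-2 mutation lowers the 6 genes was asked in daf-2 against N2. The genes dod-24 and dod-23 fell. The gene dod-24 was 10.6-fold lower in daf-2 than in N2, a log2 fold change of -3.41 ± 0.47 (SE, adjusted p = 8.24e-05), and dod-23 was 2.82-fold lower, at -1.50 ± 0.24 (adjusted p = 0.000369). Each daf-2 library was below each N2 library for both genes, and also for dod-22, which did not pass the test at -1.60 ± 0.79 (adjusted p = 0.174). How many of all loci separate in this way was not counted. The log2 fold change of dod-17 was -0.89 ± 0.73 (adjusted p = 0.393). That of dod-19 was 0.42 ± 0.32 on counts (adjusted p = 0.352), and -0.21 on deposited FPKM with 1 added, a scale that moved the median of all loci by -0.45 in this comparison. So 2 of the 5 tested members were lower and 0 were higher. Of all 12091 loci tested, 5.84% were called lower and 10.9% higher in the same comparison. These calls held 1312 higher loci of 2018, against 1165 of 2125 with RLE scaling, 1243 of 2464 with upper-quartile scaling and 422 of 1102 on FPKM. When the libraries numbered 1 were left out of all genotypes, dod-23 stood at -1.54 and its call was lost (adjusted p = 0.0685), in a fit that called 326 loci in all.

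Mean levels of tissue marker lists also differed between daf-2 and N2, though the sums of some lists overlapped. Mean log2 CPM over a marker list was 9.03 ± 0.084 in daf-2 and 8.70 ± 0.15 in N2 for the 8 intestine genes, 3.80 ± 0.27 in daf-2 and 3.10 ± 0.24 in N2 for the 6 neuron genes, and 8.54 ± 0.026 in daf-2 and 8.76 ± 0.052 in N2 for the 5 germ line genes (SD, n = 3 each). It was 3.61 ± 0.82 in daf-2 and 2.11 ± 0.93 in N2 for the 8 sperm genes, and -0.63 ± 0.086 in daf-2 and 0.13 ± 0.20 in N2 for the 7 embryo genes. For body wall muscle it was 8.69 ± 0.57 in daf-2 and 7.90 ± 0.54 in N2. Cuticle genes had 3.76 ± 0.56 in daf-2 and 3.43 ± 0.29 in N2, and oocyte genes 9.72 ± 0.13 in daf-2 and 10.01 ± 0.14 in N2. Summed, germ line markers held 3015 to 3166 CPM in daf-2 and 3545 to 3801 CPM in N2, and neuron markers 275 to 317 CPM in daf-2 and 268 to 295 CPM in N2. Intestine markers held 38237 to 51485 CPM in daf-2 and 39913 to 46660 CPM in N2. In this comparison 1 intestine and 1 neuron marker were called higher and 2 germ line markers lower, beside 10.9% of all loci higher and 5.84% lower. No marker of muscle, cuticle, oocytes, sperm or embryos that could be tested was called. Every germ line marker, and some of each other list, was counted in a locus that also holds other genes, such as glh-1/rpb-5/sacy-1. Levels and calls of such markers include those genes. Up to 3 embryo markers were at 0 in a daf-2 library and up to 2 in an N2 library, and none of the other lists had a marker at 0 in either genotype. The part of these differences in the levels of dod-24 and dod-23 was not tested.

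Loss of daf-16 in the daf-2 background was examined in mu86 against daf-2. All 3 tested CUB-like genes and dod-23 rose, and dod-19 did not pass the test. The log2 fold change of dod-22 was 5.09 ± 0.82 (SE, 34.1-fold, adjusted p = 0.000479) and that of dod-24 was 4.92 ± 0.50 (30.3-fold, adjusted p = 5.32e-06). The gene dod-17 changed by 3.43 ± 0.78 (10.7-fold, adjusted p = 0.00793) and dod-23 by 2.26 ± 0.25 (4.78-fold, adjusted p = 1.27e-05). For dod-19 the value was 0.77 ± 0.32 (1.70-fold, adjusted p = 0.159), with a 95% interval of 0.09 to 1.44. So 4 of the 5 tested members were higher and 0 lower, where 4.13% of all tested loci were called higher. The median log2 fold change was 3.43 over the 5 members and -0.0066 over all loci. Of all calls, 499 of 1244 were higher, against 743 of 1420 with upper-quartile scaling. Without the libraries numbered 1, the dod-17 and dod-22 calls were lost (adjusted p = 0.145 and 0.0595), at log2 fold changes of 4.20 and 5.69. With 1 library left out all 4 calls held in 6 of 6 fits, but the sizes of dod-17 and dod-22 moved most without mu86 library 3, where they stood at 2.497 and 4.33. The highest such values were 3.84 for dod-17, without daf-2 library 1, and 5.44 for dod-22, without mu86 library 1. On FPKM with 1 added the value of dod-22 was 2.12, that of dod-17 2.49 and that of dod-24 3.82. The added 1 exceeds the dod-22 level in daf-2.

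The test was repeated for the daf-16a/f mutation in mg54 against daf-2, which shares the daf-2 libraries. The genes dod-22 (5.02 ± 0.82, 32.5-fold, adjusted p = 0.000628), dod-24 (3.98 ± 0.48, 15.8-fold, adjusted p = 3.3e-05), dod-17 (3.24 ± 0.77, 9.45-fold, adjusted p = 0.0122) and dod-23 (2.08 ± 0.25, 4.23-fold, adjusted p = 2.78e-05) rose. The log2 fold change of dod-19 was 0.77 ± 0.32 (adjusted p = 0.163). These are 4 of the 5 tested members higher and 0 lower, beside 3.77% of all loci called higher. Of all calls, 456 of 1130 were higher, against 380 of 734 on FPKM with 0.1 added. The replicate numbers paired the libraries here, and with the replicate number as a block in the model dod-19 also passed (0.73, adjusted p = 0.0257, with 19% of all loci called). Single libraries decided the dod-17 call. It was lost without daf-2 library 2 (2.90, adjusted p = 0.055) and without mg54 library 3 (2.43, adjusted p = 0.06). Without mg54 library 3 the dod-22 value was 4.31, and on FPKM with 1 added dod-22 stood at 2.09 and dod-24 at 2.97. Without the libraries numbered 1, the calls of dod-17 (3.81, adjusted p = 0.207) and dod-22 (5.39, adjusted p = 0.085) were lost.

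**Figure D2:**
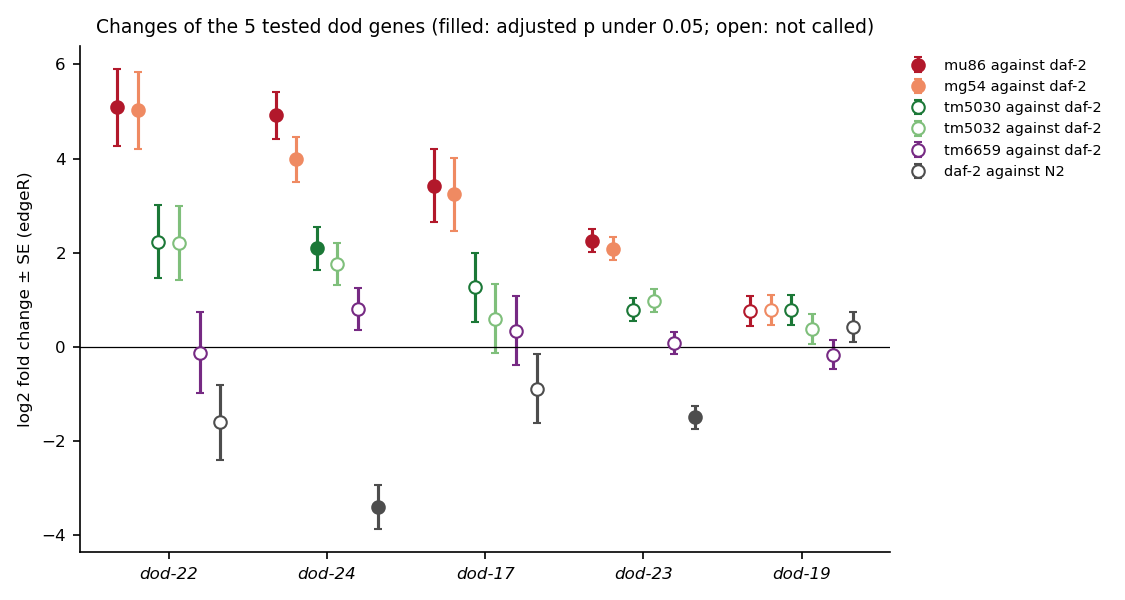
Log2 fold change with its standard error (edgeR) of the 5 tested genes in each daf-16 genotype against daf-2 and in daf-2 against N2; filled points passed an adjusted p of 0.05. For dod-22, dod-24, dod-17 and dod-23 the mu86 and mg54 points lie highest, the tm5030 and tm5032 points lower, and, of the 5 daf-16 genotypes, the tm6659 points nearest to 0.

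Setting mg54 directly against mu86 gave no call among the 5 members, where 0.0331% of all loci were called in either direction. The largest value was that of dod-24, at -0.94 ± 0.42 with a 95% interval of -1.82 to -0.06 (unadjusted p = 0.0384, adjusted p = 1). Intervals of the other 4 were -1.67 to 1.29 for dod-17, -1.44 to 1.31 for dod-22, -0.67 to 0.32 for dod-23 and -0.66 to 0.68 for dod-19. The 95% intervals of dod-17 and dod-22 thus allow differences of more than 2-fold in either direction. By DESeq2, 0 members were called as well.

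Loss of daf-16a alone moved 2 of the members past the threshold. In the mean of tm5030 and tm5032 against daf-2, dod-24 rose by 1.93 ± 0.41 on the log2 scale (3.81-fold, adjusted p = 0.0207) and dod-23 by 0.88 ± 0.21 (1.85-fold, adjusted p = 0.0429). The gene dod-22 stood at 2.22 ± 0.72 (adjusted p = 0.172), with all 6 daf-16a libraries above the 3 of daf-2, dod-17 at 0.93 ± 0.65 (adjusted p = 0.841) and dod-19 at 0.58 ± 0.28 (adjusted p = 0.523). That is 2 of 5 higher and 0 lower, beside 0.777% of all loci called higher. Loci whose libraries separate as those of dod-22 did were not counted. Of all calls, 94 of 226 were higher, against 138 of 256 on FPKM with 1 added and 178 of 273 with 0.1 added. With the replicate block dod-22 passed too (2.20, adjusted p = 0.0315), where 5.75% of all loci did. The dod-24 call was lost without daf-2 library 2 (1.53, adjusted p = 0.0554). When 1 library was left out, the dod-23 call held in 2 of 9 fits, those without library 3 of tm5030 or of tm5032. Without any 1 of the other 7 libraries, all of daf-2 included, it was lost (0.73 to 1.08, adjusted p up to 0.181).

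The 2 daf-16a mutations were also set against daf-2 one at a time. The log2 fold change of dod-24 was 2.09 ± 0.45 in tm5030 (adjusted p = 0.0351) and 1.77 ± 0.45 in tm5032 (adjusted p = 0.0827). That of dod-23 was 0.79 ± 0.24 in tm5030 (adjusted p = 0.174) and 0.98 ± 0.24 in tm5032 (adjusted p = 0.0662). That is 1 member called in tm5030, beside 0.331% of all loci called higher, and 0 in tm5032, beside 1.04% called in either direction. In tm5032, 3 members had an unadjusted p under 0.05, a count not made over all loci. In tm5030 against tm5032 no member was called, and 0.0248% of all loci were. The 95% interval of that difference was -0.57 to 1.22 for dod-24, -0.69 to 0.31 for dod-23 and -1.42 to 1.49 for dod-22. With the replicate block, dod-24 and dod-23 passed in tm5030 (2.20 and 0.77, adjusted p = 0.00103 and 0.00938) and in tm5032 (1.82 and 0.94, adjusted p = 0.00398 and 0.00195), each against daf-2. Those fits called 3.76% of all loci in tm5030 and 3.63% in tm5032.

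Loss of daf-16f alone gave no call among the 5 members in tm6659 against daf-2, where 0.174% of all loci were called. No member had an unadjusted p under 0.05. DESeq2 called 0 as well, but gave dod-22 no adjusted p. The log2 fold changes were 0.80 ± 0.45 for dod-24, 0.34 ± 0.73 for dod-17, 0.08 ± 0.24 for dod-23, -0.12 ± 0.86 for dod-22 and -0.16 ± 0.32 for dod-19, each with an adjusted p of 1. The 3 tm6659 libraries of dod-24 were above the 3 daf-2 libraries, with a 95% interval of -0.14 to 1.75. Loci that separate in this way were not counted. For dod-23 the interval was -0.42 to 0.59, and for dod-22, which had few fragments, it was -1.94 to 1.69. Of all calls, 5 of 21 were higher, against 13 of 32 with upper-quartile scaling, 23 of 50 by DESeq2 and 3 of 7 on FPKM with 0.1 added.

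The difference between loss of daf-16a and loss of daf-16f was tested in the mean of tm5030 and tm5032 against tm6659. None of the 5 members passed, where 2.44% of all loci did. The log2 differences were 2.34 ± 0.72 for dod-22 (adjusted p = 0.112), 1.12 ± 0.39 for dod-24 (adjusted p = 0.176), 0.80 ± 0.21 for dod-23 (adjusted p = 0.0577), 0.75 ± 0.28 for dod-19 (adjusted p = 0.244) and 0.59 ± 0.64 for dod-17 (adjusted p = 0.937). At an unadjusted p under 0.05 there were 4, a count not made over all loci. DESeq2 called 3, beside 564 of 16700 loci with any fragment. How many of those it gave an adjusted p was not counted. The replicate numbers paired these libraries, and the replicate block gave 4 calls beside 7.86% of all loci: dod-19 (0.75, adjusted p = 0.0219), dod-22 (2.36, adjusted p = 0.0151), dod-23 (0.77, adjusted p = 0.00179) and dod-24 (1.13, adjusted p = 0.0152). The 6 daf-16a libraries were above the 3 tm6659 libraries for dod-19, dod-22 and dod-24, and the share of all loci that separate in this way was not counted.

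Whether the mg54 change equals the sum of the daf-16a and daf-16f changes was asked with a test of additivity, the mg54 change minus that sum. It shares the daf-2 libraries with the comparisons above. All 5 values were positive and none passed, where 0.438% of all loci did. They were 2.93 ± 1.05 for dod-22 (adjusted p = 0.584), 1.96 ± 0.95 for dod-17 (adjusted p = 1), 1.25 ± 0.57 for dod-24 (adjusted p = 1), 1.11 ± 0.31 for dod-23 (adjusted p = 0.241) and 0.35 ± 0.42 for dod-19 (adjusted p = 1). At an unadjusted p under 0.05 there were 3, a count not made over all loci. DESeq2 called 0, beside 117 of 16700 loci with any fragment, and how many of those it gave an adjusted p was not counted. With the replicate block dod-23 passed (1.14, adjusted p = 0.00595), and so did 1.27% of all loci.

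The daf-16a/f mutation was also compared with the mutations of single isoforms. In mg54 against tm5030 the log2 fold changes were 2.79 ± 0.71 for dod-22 (adjusted p = 0.0477), 1.29 ± 0.24 for dod-23 (adjusted p = 0.00645) and 1.89 ± 0.43 for dod-24 (adjusted p = 0.0256), so 3 of 5 members were higher beside 0.612% of all loci. Against tm5032 the same 3 were higher in mg54, at 2.82 ± 0.71, 1.10 ± 0.24 and 2.21 ± 0.44 (adjusted p = 0.0391, 0.0161 and 0.00852), beside 0.786% of all loci. In mg54 against tm6659, 4 of 5 were higher beside 2.7% of all loci: dod-17 (2.90 ± 0.76), dod-22 (5.15 ± 0.82), dod-23 (2.00 ± 0.24) and dod-24 (3.18 ± 0.46). The gene dod-19 passed in none of the 3. With the replicate block dod-17 passed against tm5030 (1.87, adjusted p = 0.00496) and tm5032 (2.51, adjusted p = 0.000561), and dod-19 passed against tm6659 (0.88, adjusted p = 0.0109). The block called 6.43% of all loci against tm5030, 7.72% against tm5032 and 12.6% against tm6659.

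Levels without daf-16 were then set against wild type. In mu86 against N2 the log2 fold changes were 3.49 ± 0.73 for dod-22 (adjusted p = 0.0253), 2.54 ± 0.74 for dod-17 (adjusted p = 0.102), 1.51 ± 0.42 for dod-24 (adjusted p = 0.0898), 1.19 ± 0.32 for dod-19 (adjusted p = 0.0776) and 0.76 ± 0.24 for dod-23 (adjusted p = 0.123). The 3 mu86 libraries were above the 3 N2 libraries for all 5. The share of all loci that separate in this way was not counted, and the median log2 fold change over all loci was 0.127. Of the 5 members, 1 was called, beside 1.35% of all loci called higher. Of all calls 163 of 184 were higher, against 130 of 865 by DESeq2 and 18 of 29 on FPKM. The replicate numbers paired these libraries, and with the replicate block all 5 passed, with adjusted p between 0.000742 and 0.00351, where 48.2% of all loci passed. Without 1 library the dod-22 value was 2.69 to 3.81. The call was lost without N2 library 1 or 2 and without mu86 library 2 or 3 (adjusted p up to 0.202).

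Genotypes mutant for daf-16a or daf-16f alone were also set against wild type. Against N2, dod-24 was lower in tm5032 (-1.64 ± 0.43, adjusted p = 0.0209) and in tm6659 (-2.60 ± 0.45, adjusted p = 0.000868), and it stood at -1.32 ± 0.43 in tm5030 (adjusted p = 0.0572). The gene dod-23 was lower in tm6659 (-1.41 ± 0.24, adjusted p = 0.000841). Those are 1 of 5 members lower in tm5032, beside 3.38% of all loci, and 2 of 5 in tm6659, beside 3.18%. The gene dod-19 went the other way in tm5030, at 1.20 ± 0.32 against N2 (adjusted p = 0.0235), 1 of 5 members higher beside 6.91% of all loci. With the replicate block, dod-23 and dod-24 were lower in tm5030 than in N2 (-0.75 and -1.22, adjusted p = 0.00197 and 0.00503). In that fit 38.5% of all loci were called in either direction.

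Among themselves, the members fell into patterns that differed by library number. The level of dod-17 and dod-19 was higher in library 3 than in library 2 in 7 of 7 genotypes, and that of dod-22 and dod-24 in 6 of 7. The level of dod-23 was lower in library 3 than in library 2 in 6 of 7. Over the 21 libraries, Pearson's r of log2 CPM between members ran from 0.26 for dod-19 with dod-23 to 0.88 for dod-17 with dod-22, given as a description since genotypes, library numbers and scaling are shared.

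Body wall muscle markers moved with the library number in the same direction as dod-17. Their 5 levels summed to 2767, 3666 and 5051 CPM in libraries 1, 2 and 3 of mu86, to 3850, 1858 and 5166 in mg54, to 3801, 1847 and 3447 in daf-2 and to 1616, 1267 and 2703 in N2. Within a genotype, the library with most muscle marker RNA also had the highest dod-17 level in 7 of 7 genotypes and the highest dod-19 level in 7 of 7. For dod-22 this was so in 6 of 7, for dod-24 in 5 of 7 and for dod-23 in 1 of 7. Such a match is not particular to muscle. Library 3 had the highest cuticle and sperm marker sums of each genotype. It also had the highest dod-17, dod-19 and dod-24 levels in 6 of 7 genotypes, dod-22 in 5 of 7 and dod-23 in 1 of 7. The share of all loci that match in these ways was not counted. No muscle marker was at 0 in any library, and none of the 5 was called in mu86 against daf-2. Cuticle markers summed to between 1068 and 4348 CPM, sperm markers to between 48.3 and 296 CPM and oocyte markers to between 3784 and 6504 CPM over the libraries. Embryo markers summed to between 140 and 225 CPM, and up to 3 of 7 were at 0 in a library. The part of these cells in the levels of the dod genes was not tested.

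**Figure D3:**
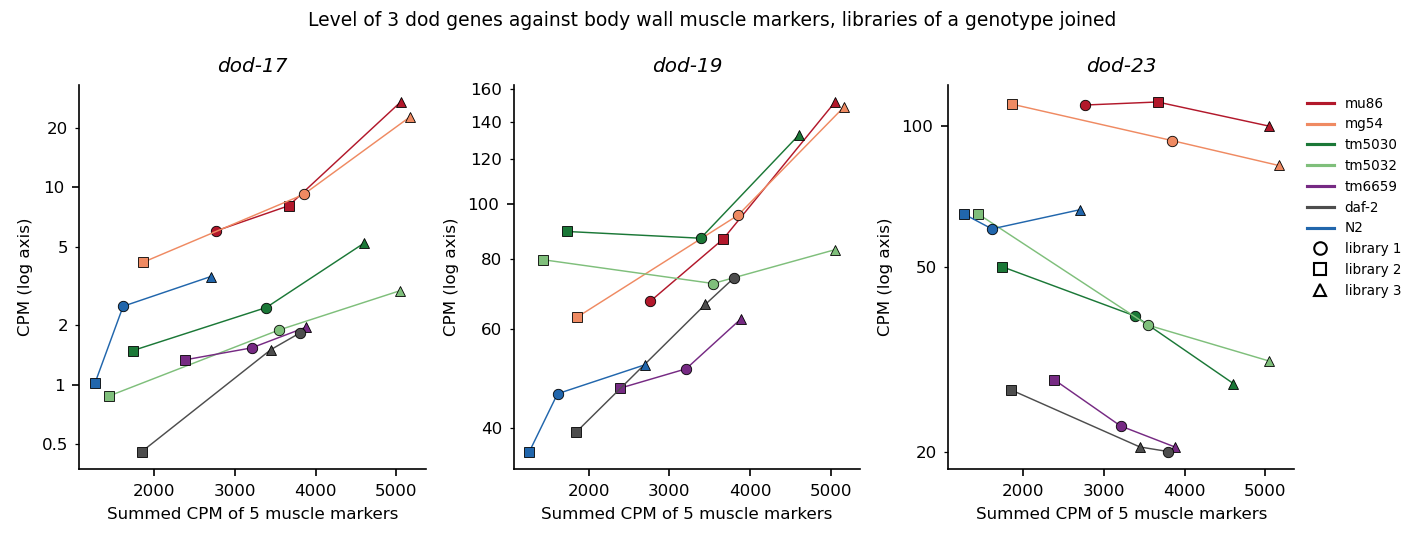
CPM of dod-17, dod-19 and dod-23 (log axis) against the summed CPM of 5 body wall muscle markers, 1 point a library, with the libraries of a genotype joined. Lines of dod-17 climb with the marker sum in all 7 genotypes, most lines of dod-23 descend, and the mu86 and mg54 lines of dod-17 and dod-23 stay above those of daf-2.

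Genes near the members were counted next. Within 20 kb of a member lie 43 other protein-coding genes. Of these, 42 had a locus in the table, in 37 loci, and 17 loci could be tested. In mu86 against daf-2, 5 of the 17 were higher and 0 lower, beside 4.13% of all loci called higher. In mg54 the counts were 4 and 0 (3.77% of all loci higher), in the daf-16a mean 1 and 0 (0.777% higher), and in tm6659 0 and 0. The medians over the 17 were 0.65, 0.45, 0.32 and -0.10. In daf-2 against N2, 2 were higher and 1 lower, beside 10.9% of all loci higher and 5.84% lower. The gene F55G11.2, on the opposite strand 53 bp from dod-22, had 8.01 ± 3.86 CPM in mu86 against 0.270 ± 0.159 in daf-2 (log2 4.87 ± 0.68, adjusted p = 0.000131), and in daf-2 it was below N2 (-2.95 ± 0.64, adjusted p = 0.00403). The counting is not stated to use strand, so fragments near the ends of dod-22 and F55G11.2 may not be told apart. The locus C32H11.3/C32H11.4 had 21.5 ± 7.08 CPM in mu86 against 1.83 ± 0.346 in daf-2 (3.55 ± 0.45, adjusted p = 5.1e-05), and it also rose in the daf-16a mean (1.82 ± 0.39, adjusted p = 0.0207).

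The infection response gene irg-8, 1111 bp from dod-19, rose in mu86 while dod-19 itself was not called. It had 268 ± 94.2 CPM in mu86, 259 ± 81.5 in mg54, 157 ± 38.2 in tm5030, 127 ± 30.7 in tm5032, 69.5 ± 0.911 in tm6659, 75.6 ± 4.01 in daf-2 and 120 ± 26.1 in N2 (SD, n = 3 each). The log2 fold change of irg-8 in mu86 against daf-2 was 1.83 ± 0.26 (adjusted p = 0.00018), and in the daf-16a mean against tm6659 it was 1.03 ± 0.23 (adjusted p = 0.0242). Smaller increases in mu86 were those of K10D11.5 (1.01 ± 0.25, adjusted p = 0.0133) and of the locus B0554.5/Y39D8A.1 (0.87 ± 0.26, adjusted p = 0.0408). The gene skpo-1, next to dod-23, stood at 0.41 ± 0.23 (adjusted p = 0.339). The locus 21ur-15387/F55G11.4/F55G11.6/F55G11.8, named after its values were seen because its genes lie on both sides of dod-22 on the same strand, was at -0.18 ± 0.44 in mu86 (adjusted p = 0.92) and rose by 1.75 ± 0.46 in daf-2 against N2 (adjusted p = 0.0139).

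**Figure D4:**
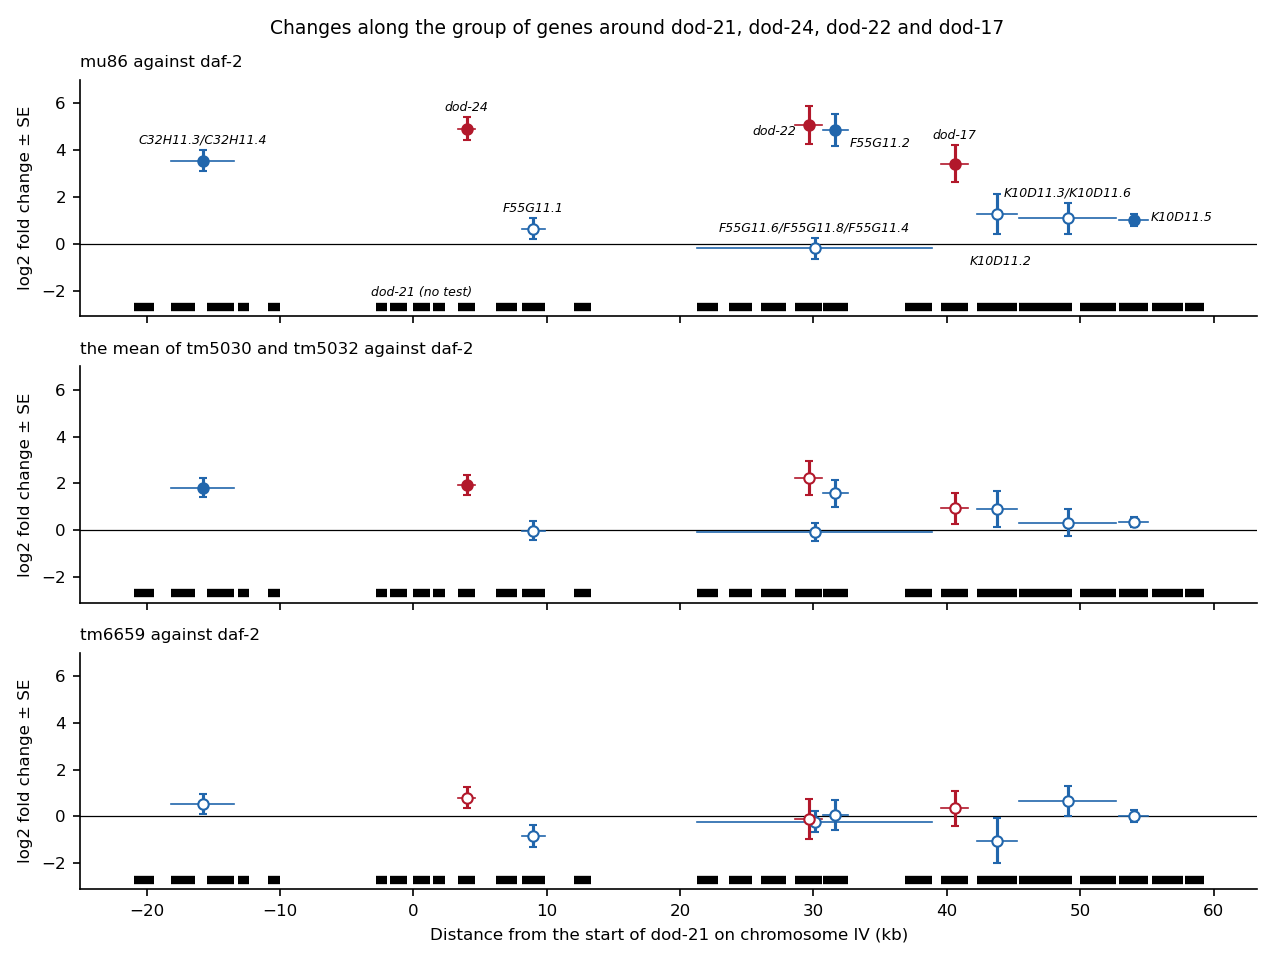
Log2 fold change with standard error along chromosome IV, by distance in kb from the start of dod-21; red marks dod genes, blue their neighbours, filled points passed an adjusted p of 0.05, horizontal lines span the genes of a locus and black bars mark annotated protein-coding genes. In mu86, dod-24, dod-22, F55G11.2, dod-17, C32H11.3/C32H11.4 and K10D11.5 are filled, while the locus whose genes lie on both sides of dod-22 is at -0.18.

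Known immune genes moved in both directions. A list of 17 immune response genes, in 16 loci, was put together around the p38 MAP kinase PMK-1. It includes irg-1 and irg-2, and whether each gene is a target of PMK-1 was not checked. Of these, 4 were higher and 4 lower in mu86 against daf-2, with a median of 0.19, beside 4.13% of all loci higher and 6.16% lower. The same counts were found in mg54 (3.77% of all loci higher and 5.57% lower), in the daf-16a mean 2 were higher and 0 lower (0.777% of all loci higher), and in tm6659 none was called. In daf-2 against N2, 7 were higher and 1 lower, beside 10.9% and 5.84% of all loci. The CUB-like gene irg-4 had 16.5 ± 3.36 CPM in mu86 against 3.19 ± 0.412 in daf-2 (2.37 ± 0.26, adjusted p = 1.41e-05), and irg-5 had 3.80 ± 0.487 CPM in mu86 against 0.230 ± 0.0614 in daf-2 (4.02 ± 0.48, adjusted p = 2.79e-05). The lectin gene clec-4 rose by 1.86 ± 0.34 (adjusted p = 0.00161), and the lectin gene clec-60 fell by 4.33 on the log2 scale (SE 0.84, adjusted p = 0.00232). In daf-2 against N2, irg-5 was lower (-2.02 ± 0.46, adjusted p = 0.00567) and irg-4 was not called (0.44 ± 0.26, adjusted p = 0.236).

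A list of other genes taken to be lowered by DAF-16 held 10, with 9 tested. In mu86 against daf-2, 2 were higher and 1 lower, beside 4.13% and 6.16% of all loci. The stearoyl-CoA desaturase gene fat-7 rose by 2.72 ± 0.28 (adjusted p = 5.73e-06) and dct-18 by 1.27 ± 0.29 (adjusted p = 0.00829). The gene nnt-1, which encodes a nicotinamide nucleotide transhydrogenase, fell by 2.32 (SE 0.17, adjusted p = 1.53e-07). Its direction is opposite to the label of the list, so the label does not hold for nnt-1 in these data. In the daf-16a mean, fat-7 rose by 1.34 ± 0.24 (adjusted p = 0.00586) and nnt-1 fell by 1.14 (SE 0.13, adjusted p = 0.000133). The counts were 1 higher and 1 lower there, beside 0.777% and 1.09% of all loci, and 0 and 0 in tm6659. Of the other loci that carry a dod name, dod-3, dod-6, T20G5.8/dod-6 and the merged locus of dod-18 could be tested, and in mu86 0 were higher and 3 lower, namely dod-3 (-3.67 ± 0.41, adjusted p = 1.66e-05), T20G5.8/dod-6 (-1.55 ± 0.39, adjusted p = 0.0167) and dod-6 (-2.29 ± 0.69, adjusted p = 0.0427).

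Of 21 regulators of the insulin, DAF-16 and immune pathways, 20 were tested. In mu86 against daf-2, 0 were higher and 4 lower, beside 6.16% of all loci called lower. They were pdk-1 (-1.17 ± 0.15, adjusted p = 4.29e-05), the locus akt-2/ceh-89 (-1.75 ± 0.25, adjusted p = 0.000151), akt-1 (-0.72 ± 0.12, adjusted p = 0.000719) and daf-2 (-0.59 ± 0.11, adjusted p = 0.00246), which encode the receptor and kinases of insulin signalling. In daf-2 against N2, 6 were higher and 0 lower, beside 10.9% of all loci higher. The RNA of pqm-1, named after its values were seen because its product is known to activate class II genes, had 32.1 ± 7.95 CPM in mu86 against 24.2 ± 6.98 in daf-2 (0.41 ± 0.32, adjusted p = 0.554). For daf-16 itself the values were -0.08 ± 0.11 in mu86 (adjusted p = 0.796), -0.79 ± 0.11 in mg54 (adjusted p = 0.000191) and -1.50 ± 0.11 in tm6659 (adjusted p = 1.49e-06), each against daf-2.

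The genes whose levels followed each member most closely were found among 6305 loci by Pearson's r of log2 CPM over the 21 libraries, which share genotypes and library numbers. For dod-22 these were the aspartyl protease gene asp-17 (0.96), irg-8 (0.96) and W02H3.1 (0.95). For dod-24 they were W04A4.2 (0.94), M01G12.9 (0.93) and F55G11.2 (0.93), the last being the neighbour of dod-22. For dod-17 they were C06H5.6 (0.97), C29F7.3 (0.96) and nrf-6 (0.96), and for dod-23 ugt-53 (0.94), vrp-1 (0.94) and the nuclear receptor gene nhr-3 (0.93). For dod-19 they were ctsa-1.2 (0.91), K01A2.5 (0.91) and R10H10.3 (0.90). No gene was among the closest 3 of 2 members.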

How the data were processed

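Per the submitters' processing notes, the authors used CASAVA 1.8.2, TopHat2 2.0.9 and Cufflinks 2.1.1. The genome build is not given in the sources used here, nor is the annotation. The authors deposited expected counts of fragments and FPKM for 33886 loci in 21 libraries, and 0 columns were left out. Of the count values, 86.3% were whole within 1e-06. The 6 members' counts lay within 0.0037 of whole numbers. A total of 3 entries that are not loci and 300 loci without a name (1.06% to 1.54% of a library) were left out.

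Expected counts were rounded and fitted with edgeR 4.0.16 in R 4.3.3 (quasi-likelihood, TMM, filterByExpr), with a term per genotype over all 21 libraries. This left 12091 loci. A locus counts as called where its 2-sided p, adjusted by Benjamini-Hochberg over the 12091 loci, is under 0.05. How many of all loci have libraries that separate without overlap was not counted in any comparison. Standard errors are the log2 fold change over the square root of F, and 95% intervals use the t distribution of the same test. Log2 CPM used a prior count of 2. The deposited FPKM gave levels per length and an alternative. DESeq2 1.42.0 and limma 3.58.1 were further alternatives. The code was tested on simulated data. Of the gene names, 97.9% matched Ensembl release 115.

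The members, lists and tests were chosen with earlier results of these data known. Named genes are the members, up to 6 neighbours and up to 4 genes a list by smallest p in mu86 against daf-2, and the 3 loci closest to each member (mean of at least 2 CPM). Other genes were added after their values were seen. Proteins related to the members were not analysed here.

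The genotypes share replicate numbers 1 to 3 without a stated meaning. Same-numbered libraries deviated together (r over 0.1) in 57 of 63 pairs, from -0.32 to 0.89. Within the main comparisons all pairs passed in 7 of 9, the exceptions being daf-2 against N2 (lowest r -0.087) and mu86 against daf-2 (lowest r -0.32).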

Additional observations from a re-analysis of the deposited data

How the results depend on the processing

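With 3 libraries a genotype, and few fragments of dod-22 and dod-21, small differences could not be resolved. Of the alternative values of single members, 822 kept direction and side of the threshold, 38 lost the call, 33 gained it and 22 changed sign, and no value that changed sign was called. In the mean of tm5030 and tm5032 against daf-2, 2 members were called, against 1 with RLE scaling, 1 on FPKM with 1 added, 0 with limma-voom and 0 with only the groups compared, but 3 by DESeq2, which added dod-22 (2.25, adjusted p = 0.0329), and 3 on FPKM with 0.1 added, namely dod-24, dod-19 (0.76, adjusted p = 0.0499) and dod-22 (1.77, adjusted p = 0.0212). In that mean against tm6659, 0 were called, against 1 each with upper-quartile scaling, a mean of at least 2 CPM, FPKM with 1 added and only the groups compared, 2 on FPKM with 0.1 added and 3 by DESeq2. In mu86 against N2, 1 was called (dod-22), against 0 with only the groups compared. When a locus needed to average 2 CPM or more, dod-22 was left out of the test and 0 members were called. DESeq2 gave an adjusted p only to dod-19 among the tested members here, and called it (1.12, adjusted p = 0.0104). The dod-22 value in daf-2 against N2 passed on FPKM with 0.1 added (-1.57, adjusted p = 0.0382). With only the groups compared, dod-17 in mg54 against daf-2 stood at 3.26, beside 3.24, and was lost (adjusted p = 0.0688) in a fit that called 469 loci, beside 1130. The causes were not tested.

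With the replicate block, members called numbered 4 in the mean of tm5030 and tm5032 against tm6659, 1 in the test of additivity, 5 in mu86 against N2 and 3 in the mean against daf-2. In mu86 against daf-2, where the numbers did not pair the libraries, it was 5, with dod-19 at 0.73 (adjusted p = 0.0228) and 21.8% of all loci called. It changed no call in daf-2 against N2, tm6659 against daf-2 or mg54 against mu86. Of 21 libraries, 18 were closest to their own number.

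With libraries left out, members called ranged over 1 to 2 in daf-2 against N2, 2 to 4 in mu86 and 2 to 5 in mg54 against daf-2, 0 to 2 in the mean of tm5030 and tm5032 against daf-2, 0 to 1 in that mean against tm6659, in the test of additivity and in mu86 against N2, and 0 in the other 2. The genes dod-22, dod-23 and dod-24 in mu86 and in mg54 against daf-2 passed in 6 of 6 fits without 1 library.

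The sign changed for dod-19 in daf-2 against N2 (-0.21 on FPKM with 1 or 0.1 added, which moved the median of all loci by -0.45 and -0.59) and in mg54 against mu86 (-0.010 with upper-quartile scaling, -0.0043 with the replicate block). With libraries left out, values in tm6659 against daf-2 ran from -0.027 to 0.76 for dod-17, -0.37 to 0.070 for dod-19, -0.83 to 0.47 for dod-22 and -0.065 to 0.26 for dod-23. In mg54 against mu86 they ran from -1.02 to 0.76 for dod-17, -0.35 to 0.41 for dod-19 and -0.80 to 0.71 for dod-22, and for dod-19 in the test of additivity from -0.041 to 0.69.

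Over all loci, calls in fits that kept all libraries ranged from 1102 (FPKM with 1 added) to 5330 (replicate block) in daf-2 against N2, beside 2018. They ranged from 683 to 2631 in mu86 (1244) and 469 to 2300 in mg54 (1130) against daf-2, 77 to 695 (226) in the mean against daf-2, 109 to 950 (295) in the mean against tm6659 and 2 to 5827 (184) in mu86 against N2, each lowest of these fits with only the groups compared and highest with the block. For tm6659 against daf-2 they were 7 to 85 (21), for additivity 26 to 154 (53) and for mg54 against mu86 2 to 10 (4). With libraries left out, the calls were 326 to 2304, 223 to 1115, 180 to 1005, 5 to 234, 17 to 321, 5 to 206, 4 to 19, 6 to 66 and 2 to 3 in the same order of comparisons, the first 8 lowest without the libraries numbered 1. FPKM with 1 added also moved the median of all loci by -0.41 in mu86 against N2, 0.12 in the mean against daf-2 and -0.13 in the test of additivity, and DESeq2 moved it by -0.13 in mu86 against N2.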
